A study of Homo sapiens with 9 samples.

Results

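The genes described here encode the enzymes of glycolysis and of the pentose phosphate pathway, the carriers that move glucose and lactate across the plasma membrane, the kinases that gate the entry of pyruvate into mitochondria, and the hypoxia-inducible factors (HIF) with a set of their targets. They were chosen by name from a list of 43 symbols and not by a cut on a measured value. Earlier results of these data were known when the list was made. Of these, 39 had a probe set annotated to that symbol alone, out of 18417 genes measured in this way, and where a gene had several such probe sets the one with the highest mean stood for it. The phosphoglycerate mutase PGAM1 was represented only by 5 probe sets whose annotation also names PGAM4, and the lactate carriers SLC16A1 and SLC16A3 and the carbonic anhydrase CA9 were not analysed here.

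The material was T47D, an established luminal breast cancer cell line with progesterone receptor, and its RNA was read on Affymetrix gene arrays. Every group carried the same construct: a retroviral vector (pHUSH) from which doxycycline switches on a short hairpin RNA against ELF5, an ETS-family transcription factor of the mammary epithelium, kept under puromycin selection. The 3 groups had 3 arrays each. Vehicle cells received ethanol only, progestin cells received 10 nM ORG2058 for 4 days, and progestin plus doxycycline cells received the same ORG2058 dose for 4 days together with doxycycline at 0.1 µg/ml. The labels call this synthetic progestin progesterone. The RNA of each array came from cells pooled from 3 wells, and the design text speaks of independent experiments. For vehicle cells the sources used here give no time in culture. All groups are bulk cultures, in which fewer cells of a kind and less RNA per cell cannot be told apart. No group received doxycycline without the progestin, and none carried another hairpin, so an effect of doxycycline itself and an effect of the hairpin cannot be told apart.

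Glycolysis splits glucose into pyruvate in the cytosol, and the pentose phosphate pathway branches from it to supply NADPH and ribose for nucleotides. Pyruvate is either reduced to lactate or imported into mitochondria, where pyruvate dehydrogenase oxidises it unless a pyruvate dehydrogenase kinase (PDK) switches that enzyme off. HIF1A and EPAS1 (HIF-2 alpha) are the oxygen-regulated subunits of the HIF transcription factors. When oxygen is present, the EGLN prolyl hydroxylases mark them for destruction, so much of HIF control acts on protein and is not read by an RNA array. Many glycolytic genes are textbook HIF1 targets.

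Array values are log2 signals, and every change below is a difference of group means on that scale. A level of one gene is not set against that of another, because probe sets differ in brightness for reasons unrelated to RNA amount. ELF5, the gene the hairpin targets, was at 10.17 in vehicle, 11.28 in progestin and 10.42 in progestin plus doxycycline (group means). It was higher with progestin by 1.11 (adjusted p = 2.06e-05) and fell by 0.87 when doxycycline was added (adjusted p = 0.029). PGR, the progesterone receptor, fell by 2.28 with progestin. All 10 markers of luminal epithelium were measured, with vehicle means of 8.88 to 12.98. With progestin, KRT19 (0.46) and XBP1 (0.23) among them were higher and PGR, ESR1 (-0.50) and GATA3 (-0.51) lower. Of 21 markers of basal, endothelial, fibroblast and immune cells, 19 were measured. Their median of group means was 5.93 in vehicle, 6.09 in progestin and 5.79 in progestin plus doxycycline. The highest mean was that of CDH5 in each group, 9.08, 9.38 and 9.36 in the same order. With progestin, 3 of the 19 were higher (KRT5, PECAM1, CDH5) and 2 lower (ACTA2, COL1A1), and the part of other cell types in the changes below was not tested. Array medians lay between 7.19 and 7.28, and the lowest value of any member on any array was 4.81.

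Most of this gene set differed between progestin and vehicle, in both directions. Of the 39 members, 26 passed the test between progestin and vehicle (66.7%), 9 higher and 17 lower. Among all 21214 probe sets tested, 29% passed in either direction, 13.4% higher and 15.6% lower. The members were mostly well expressed: 34 of them lay above the median gene, and of those 22 passed (64.7%), against 42% of all genes above the median. The median change of the members was -0.12, beside 0.02 for all probe sets. Values of the progestin arrays did not overlap those of the vehicle arrays for 28 members (71.8%), against 42.3% of all probe sets. Only 4 members changed by 2-fold or more: EPAS1 (2.10), PDK4 (1.95) and P4HA2 (1.41) rose, and PDK3 fell by 1.33.

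**Figure D1:**
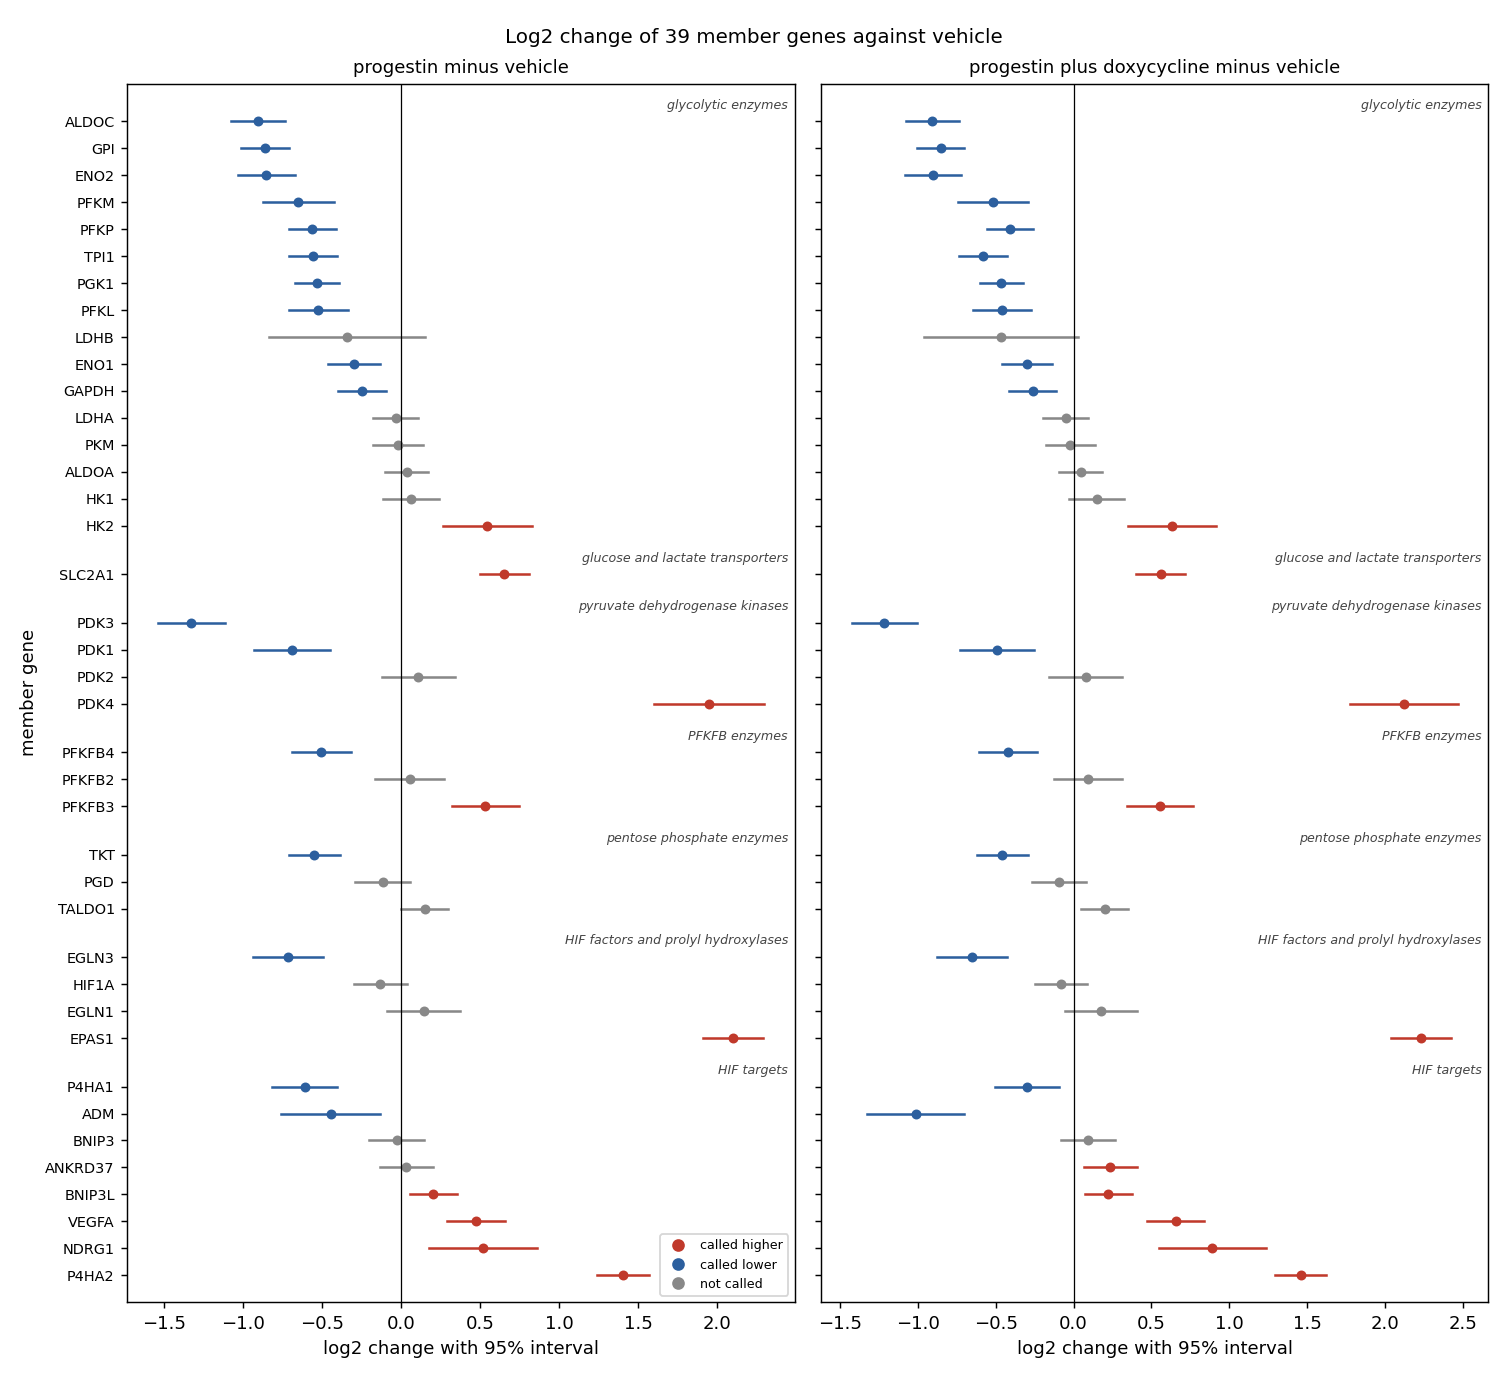
Log2 change of the 39 measured members, grouped by role, with progestin against vehicle on the left and progestin plus doxycycline against vehicle on the right. Points are differences of 3 arrays against 3, bars are 95% intervals, red marks genes that passed higher, blue genes that passed lower and grey the rest. Most glycolytic enzymes lie left of 0, while EPAS1, PDK4 and P4HA2 stand far to the right in both panels, which share the vehicle arrays.

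Promoters are shown for some related members with opposite changes: the kinases PDK3 and PDK4 and the prolyl 4-hydroxylase subunits P4HA1 and P4HA2. Those of ALDOC, the glycolytic gene with the largest fall, and EPAS1, the member with the largest rise, are added. PFKFB3 and PFKFB4, which also went in opposite directions, are not printed. Each sequence runs from 250 bases before to 50 bases after a gene's start, on the gene's strand, 5′ to 3′, from RefSeq on GRCh38.p14. Capitals mark the core of the hypoxia response element (ACGTG or GCGTG) on either strand and, in PDK4, a match to AGAACA, the 6-base site bound by progesterone and glucocorticoid receptors. ALDOC lies at chr17:28576846-28577145 (minus strand), PDK3 at chrX:24465036-24465335 (plus strand) and PDK4 at chr7:95596467-95596766 (minus strand). P4HA1 lies at chr10:73096817-73097116 (minus strand), P4HA2 at chr5:132227042-132227341 (minus strand) and EPAS1 at chr2:46297157-46297456 (plus strand).
ALDOC: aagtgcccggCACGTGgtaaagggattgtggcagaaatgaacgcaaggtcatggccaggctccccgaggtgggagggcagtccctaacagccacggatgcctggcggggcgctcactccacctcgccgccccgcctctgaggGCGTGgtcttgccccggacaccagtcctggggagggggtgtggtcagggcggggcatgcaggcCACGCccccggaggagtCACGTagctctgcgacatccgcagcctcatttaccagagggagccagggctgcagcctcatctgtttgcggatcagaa
PDK3: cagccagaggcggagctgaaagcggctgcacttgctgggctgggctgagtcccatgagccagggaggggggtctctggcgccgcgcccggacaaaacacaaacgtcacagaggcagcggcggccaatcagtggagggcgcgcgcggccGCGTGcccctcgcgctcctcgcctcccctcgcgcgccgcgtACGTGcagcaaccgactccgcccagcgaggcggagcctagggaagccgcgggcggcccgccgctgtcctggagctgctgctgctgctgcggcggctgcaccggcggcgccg
PDK4: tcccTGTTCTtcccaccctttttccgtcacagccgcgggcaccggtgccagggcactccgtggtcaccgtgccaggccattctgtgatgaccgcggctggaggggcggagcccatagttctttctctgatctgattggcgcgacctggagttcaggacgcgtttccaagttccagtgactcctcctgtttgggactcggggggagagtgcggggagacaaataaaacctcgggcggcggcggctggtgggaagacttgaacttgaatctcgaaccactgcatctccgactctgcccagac
P4HA1: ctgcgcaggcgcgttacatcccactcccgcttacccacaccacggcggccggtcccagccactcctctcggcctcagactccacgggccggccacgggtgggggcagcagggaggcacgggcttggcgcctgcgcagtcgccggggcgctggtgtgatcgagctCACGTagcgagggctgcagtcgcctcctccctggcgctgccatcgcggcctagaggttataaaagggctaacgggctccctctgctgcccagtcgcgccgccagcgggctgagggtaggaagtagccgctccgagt
P4HA2: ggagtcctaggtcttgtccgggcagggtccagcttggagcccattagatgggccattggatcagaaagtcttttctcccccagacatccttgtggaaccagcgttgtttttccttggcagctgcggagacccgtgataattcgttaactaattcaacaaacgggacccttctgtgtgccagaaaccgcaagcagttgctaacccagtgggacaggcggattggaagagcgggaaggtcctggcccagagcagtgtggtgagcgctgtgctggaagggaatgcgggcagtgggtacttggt
EPAS1: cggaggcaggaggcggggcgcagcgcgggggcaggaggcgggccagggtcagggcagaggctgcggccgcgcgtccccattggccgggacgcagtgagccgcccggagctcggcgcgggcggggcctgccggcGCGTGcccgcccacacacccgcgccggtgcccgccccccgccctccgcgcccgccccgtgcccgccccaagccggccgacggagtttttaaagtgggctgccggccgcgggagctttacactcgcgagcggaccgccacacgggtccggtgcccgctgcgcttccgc
ALDOC held 5 core matches counted over both strands, PDK3 held 2, P4HA1 and EPAS1 held 1 each, and PDK4 and P4HA2 held 0. Promoters were listed for 35 of the 39 members, 24 of them with a single start. The core was present in 19 of these 24 promoters (79.2%), against 47.3% of the 22114 genes with a single listed start. Of the 16 glycolytic enzymes, 9 were in this single-start set and all 9 held it, 7 that fell and 2 that did not pass. The other 7 have several listed starts, with the core at every start of HK2, ALDOA and LDHA but only at 2 of 7 for HK1, 2 of 7 for PFKM, 2 of 4 for PFKP and 1 of 2 for TPI1. By direction, it was present in 11 of 13 single-start members that fell, 2 of 4 that rose and 6 of 7 that did not pass. HK2 and PFKFB3 rose and have 2 listed starts each, and the core was at every one. PFKFB4, the relative of PFKFB3 that fell, held 1 core match. The AGAACA half-site was found in 3 of the 24 (12.5%), against 15.1% of all such promoters: GPI and ADM, which fell, and PDK4, which rose. A match of letters is a description and not a measured binding site.

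Among the glycolytic enzymes, 10 of 16 fell with the progestin and 1 rose. GPI, which converts glucose 6-phosphate to fructose 6-phosphate, gave 10.72, 10.69 and 10.73 in the vehicle arrays, 9.88, 9.91 and 9.77 with progestin, and 9.88, 9.88 and 9.82 with progestin plus doxycycline. The change with progestin was -0.86 ± 0.07 (SE; 1.82-fold lower, adjusted p = 3.26e-05, limma). Both progestin groups lay well below vehicle and overlapped each other. ALDOC, the brain-type aldolase, read 9.65, 9.69 and 9.66 in vehicle, 8.68, 8.81 and 8.79 in progestin, and 8.82, 8.81 and 8.65 in progestin plus doxycycline. It fell by 0.91 ± 0.07 (1.87-fold, adjusted p = 4.9e-05), the largest change of the pathway.

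ENO2, the neuronal enolase, moved in the same way. Its values were 7.65, 7.71 and 7.79 in vehicle, 6.81, 6.82 and 6.96 in progestin, and 6.76, 6.90 and 6.79 in progestin plus doxycycline, a fall of 0.85 ± 0.08 (1.81-fold, adjusted p = 8.78e-05). PGK1, the first ATP-forming enzyme of the pathway, gave 11.87, 11.84 and 11.90 in vehicle, 11.35, 11.29 and 11.38 in progestin, and 11.39, 11.42 and 11.41 in progestin plus doxycycline. It fell by 0.53 ± 0.06 (1.45-fold, adjusted p = 0.000303). PFKP, the platelet-type subunit of phosphofructokinase, which catalyses the committed step, read 9.51, 9.37 and 9.47 in vehicle, 8.90, 8.89 and 8.87 in progestin, and 8.998, 9.06 and 9.07 in progestin plus doxycycline. It fell by 0.56 ± 0.07 (1.48-fold, adjusted p = 0.000338). Its progestin plus doxycycline values lay between those of the other groups without overlapping either, but their difference from progestin did not pass (adjusted p = 0.346, limma).

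The remaining phosphofructokinase subunits fell too, the liver type PFKL by 0.52 and the muscle type PFKM by 0.65, so all 3 subunit genes were lower. Triose phosphate isomerase (TPI1) fell by 0.56, and its other probe set gave a change of -0.62, which also passed. GAPDH, the dehydrogenase of the pathway and a common reference gene, was lower by a smaller amount, -0.25 ± 0.07 (adjusted p = 0.0235), as was the main enolase ENO1, -0.30 ± 0.07 (adjusted p = 0.0144). GAPDH has many processed pseudogenes, and how far its probe set reads them was not tested. The GAPDH call was lost without vehicle replicate 1 or 2 or without progestin replicate 2 or 3 (adjusted p up to 0.0952), and the ENO1 call without vehicle replicate 1 (adjusted p = 0.0597). HK2, the inducible hexokinase that traps glucose in the cell, was the only glycolytic enzyme that rose, by 0.54 ± 0.12 (1.46-fold, adjusted p = 0.0111).

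The other 5 glycolytic enzymes did not pass. The hexokinase HK1 changed by 0.06 (95% interval -0.11 to 0.24) and the muscle-type aldolase ALDOA by 0.04 (-0.10 to 0.17). Pyruvate kinase (PKM) changed by -0.02 (-0.18 to 0.14) and lactate dehydrogenase A (LDHA), which makes lactate, by -0.03 (-0.18 to 0.11). These intervals leave out changes as large as those of GPI or ALDOC. LDHB was dim and scattered, with a change of -0.34 (-0.83 to 0.15). The paired isozymes thus differed in their calls: ALDOC passed and ALDOA did not, HK2 passed and HK1 did not, and the difference within each pair was not itself tested. PGAM1, seen only through probe sets shared with PGAM4, changed by -0.12 to -0.09 over its 5 probe sets and did not pass.

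The glucose carrier rose, while of the 16 glycolytic enzyme genes 10 fell, 1 rose and 5 did not pass. SLC2A1 (GLUT1), the main glucose importer of many cancer cells, gave 8.92, 8.86 and 8.88 in vehicle, 9.55, 9.52 and 9.55 in progestin, and 9.52, 9.46 and 9.35 in progestin plus doxycycline. It rose by 0.65 ± 0.07 with progestin (1.57-fold, adjusted p = 0.000183), and both progestin groups lay above every vehicle array. SLC2A1 is itself a known HIF1 target, as is HK2.

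The 4 pyruvate dehydrogenase kinases, which phosphorylate and silence pyruvate dehydrogenase, diverged. PDK4, the isoform induced in fasting and by glucocorticoids in many tissues, read 5.52, 5.98 and 5.41 in vehicle, 7.68, 7.61 and 7.49 in progestin, and 7.88, 7.81 and 7.59 in progestin plus doxycycline. It rose by 1.95 ± 0.15 (3.87-fold, adjusted p = 3.59e-05). PDK3 gave 8.85, 8.84 and 8.80 in vehicle, 7.53, 7.49 and 7.48 in progestin, and 7.50, 7.82 and 7.54 in progestin plus doxycycline, a fall of 1.33 ± 0.09 (2.51-fold, adjusted p = 1.94e-05). The rise of PDK4 and the fall of PDK3 left every vehicle array on one side of every other array.

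PDK1, a HIF1 target that limits pyruvate oxidation in hypoxia, read 7.59, 7.66 and 7.63 in vehicle, 7.07, 6.71 and 7.02 in progestin, and 7.09, 7.23 and 7.08 in progestin plus doxycycline. It fell by 0.69 ± 0.10 (1.62-fold, adjusted p = 0.00144). PDK2, the most widely expressed isoform, changed by 0.11 (95% interval -0.12 to 0.34) and did not pass.

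The PFKFB enzymes make and break down fructose 2,6-bisphosphate, the strongest activator of phosphofructokinase. PFKFB3, the isoform with the highest kinase activity, gave 10.23, 10.30 and 10.00 in vehicle, 10.76, 10.64 and 10.72 in progestin, and 10.70, 10.80 and 10.68 in progestin plus doxycycline. It rose by 0.53 ± 0.09 (1.45-fold, adjusted p = 0.00297). PFKFB4 went the other way: 7.79, 7.77 and 7.95 in vehicle, 7.32, 7.25 and 7.43 in progestin, and 7.35, 7.44 and 7.46 in progestin plus doxycycline, a fall of 0.51 ± 0.08 (1.42-fold, adjusted p = 0.00202). PFKFB2 changed by 0.05 (-0.16 to 0.27) and did not pass.

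Of the 3 pentose phosphate enzymes, 1 fell. Transketolase (TKT), which links the non-oxidative branch to glycolysis, read 10.58, 10.63 and 10.50 in vehicle, 9.98, 9.97 and 10.11 in progestin, and 10.10, 10.09 and 10.14 in progestin plus doxycycline. Its fall was 0.55 ± 0.07 (1.46-fold, adjusted p = 0.000579). PGD, which yields NADPH in the oxidative branch, changed by -0.12 (-0.29 to 0.06), and transaldolase (TALDO1) by 0.15 (adjusted p = 0.13). Although neither passed, the progestin arrays of both lay apart from the vehicle arrays. TALDO1 passed with quantile normalization (0.20, adjusted p = 0.0229) and with variance trend and robust estimation (adjusted p = 0.048), and PGD with array weights (adjusted p = 0.0453).

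The 2 oxygen-regulated HIF subunits were unlike. EPAS1, the member with the smallest p, gave 8.53, 8.54 and 8.37 in vehicle, 10.58, 10.50 and 10.67 in progestin, and 10.71, 10.80 and 10.63 in progestin plus doxycycline. It rose by 2.10 ± 0.08 (4.29-fold, adjusted p = 1.11e-06), so the gap between the groups was far larger than the spread within any of them. HIF1A changed by -0.13 (-0.30 to 0.04) and passed only with array weights (adjusted p = 0.0479). EGLN3, a prolyl hydroxylase that is itself a HIF target, read 7.69, 7.86 and 7.95 in vehicle, 7.11, 7.10 and 7.13 in progestin, and 7.22, 7.02 and 7.30 in progestin plus doxycycline. It fell by 0.72 ± 0.10 (1.64-fold, adjusted p = 0.000817). EGLN1, the main oxygen sensor in most cells, changed by 0.14 (-0.09 to 0.38).

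The HIF targets did not move as a block: of 8 measured, 4 rose, 2 fell and 2 did not pass. P4HA2 and P4HA1, alternative catalytic subunits of the collagen prolyl 4-hydroxylase, went in opposite directions. P4HA2 gave 8.54, 8.45 and 8.37 in vehicle, 9.88, 9.84 and 9.86 in progestin, and 9.89, 9.98 and 9.86 in progestin plus doxycycline, a rise of 1.41 ± 0.07 (2.65-fold, adjusted p = 4.03e-06). P4HA1 read 9.67, 9.65 and 9.53 in vehicle, 8.98, 8.92 and 9.12 in progestin, and 9.23, 9.28 and 9.45 in progestin plus doxycycline. It fell by 0.61 ± 0.09 (1.53-fold, adjusted p = 0.00127), and its arrays formed 3 groups that did not overlap. The P4HA1 difference between the progestin groups did not pass in the main fit (adjusted p = 0.198, limma).

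VEGFA, the angiogenic growth factor, rose by 0.47 ± 0.08 (1.39-fold, adjusted p = 0.00264). Its values were 7.997, 7.79 and 7.88 in vehicle, 8.32, 8.31 and 8.45 in progestin, and 8.51, 8.52 and 8.60 in progestin plus doxycycline, so each group stood above the one before. The VEGFA difference between the progestin groups, 0.18, did not pass (adjusted p = 0.355, limma). NDRG1, a stress-response gene induced by hypoxia and by differentiation, followed the same order with more scatter: 8.34, 8.10 and 8.67, then 8.79, 8.78 and 9.09, then 9.24, 9.21 and 9.34. Its rise with progestin was 0.52 ± 0.15 (1.43-fold, adjusted p = 0.0318), and its difference between the progestin groups did not pass (adjusted p = 0.328, limma). ADM, the vasodilator peptide adrenomedullin, read 6.78, 6.79 and 6.87 in vehicle, 6.32, 6.22 and 6.55 in progestin, and 5.73, 5.58 and 6.08 in progestin plus doxycycline. It fell by 0.45 ± 0.14 with progestin (1.36-fold, adjusted p = 0.0408). BNIP3L, a mitophagy receptor, was higher by 0.20 ± 0.06 (adjusted p = 0.0469), while its relative BNIP3 changed by -0.03 (-0.20 to 0.15) and ANKRD37 by 0.03 (-0.14 to 0.20).

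The calls of NDRG1, ADM and BNIP3L were the least secure. Each was lost on leaving out any 1 of several arrays: BNIP3L for all but progestin plus doxycycline replicate 2 (adjusted p up to 0.137), ADM for any vehicle array, for progestin replicate 1 or 2 and for replicate 1 of progestin plus doxycycline (up to 0.122), and NDRG1 for vehicle replicate 1 or 2, any progestin array or progestin plus doxycycline replicate 1 (up to 0.0922).

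**Figure D2:**
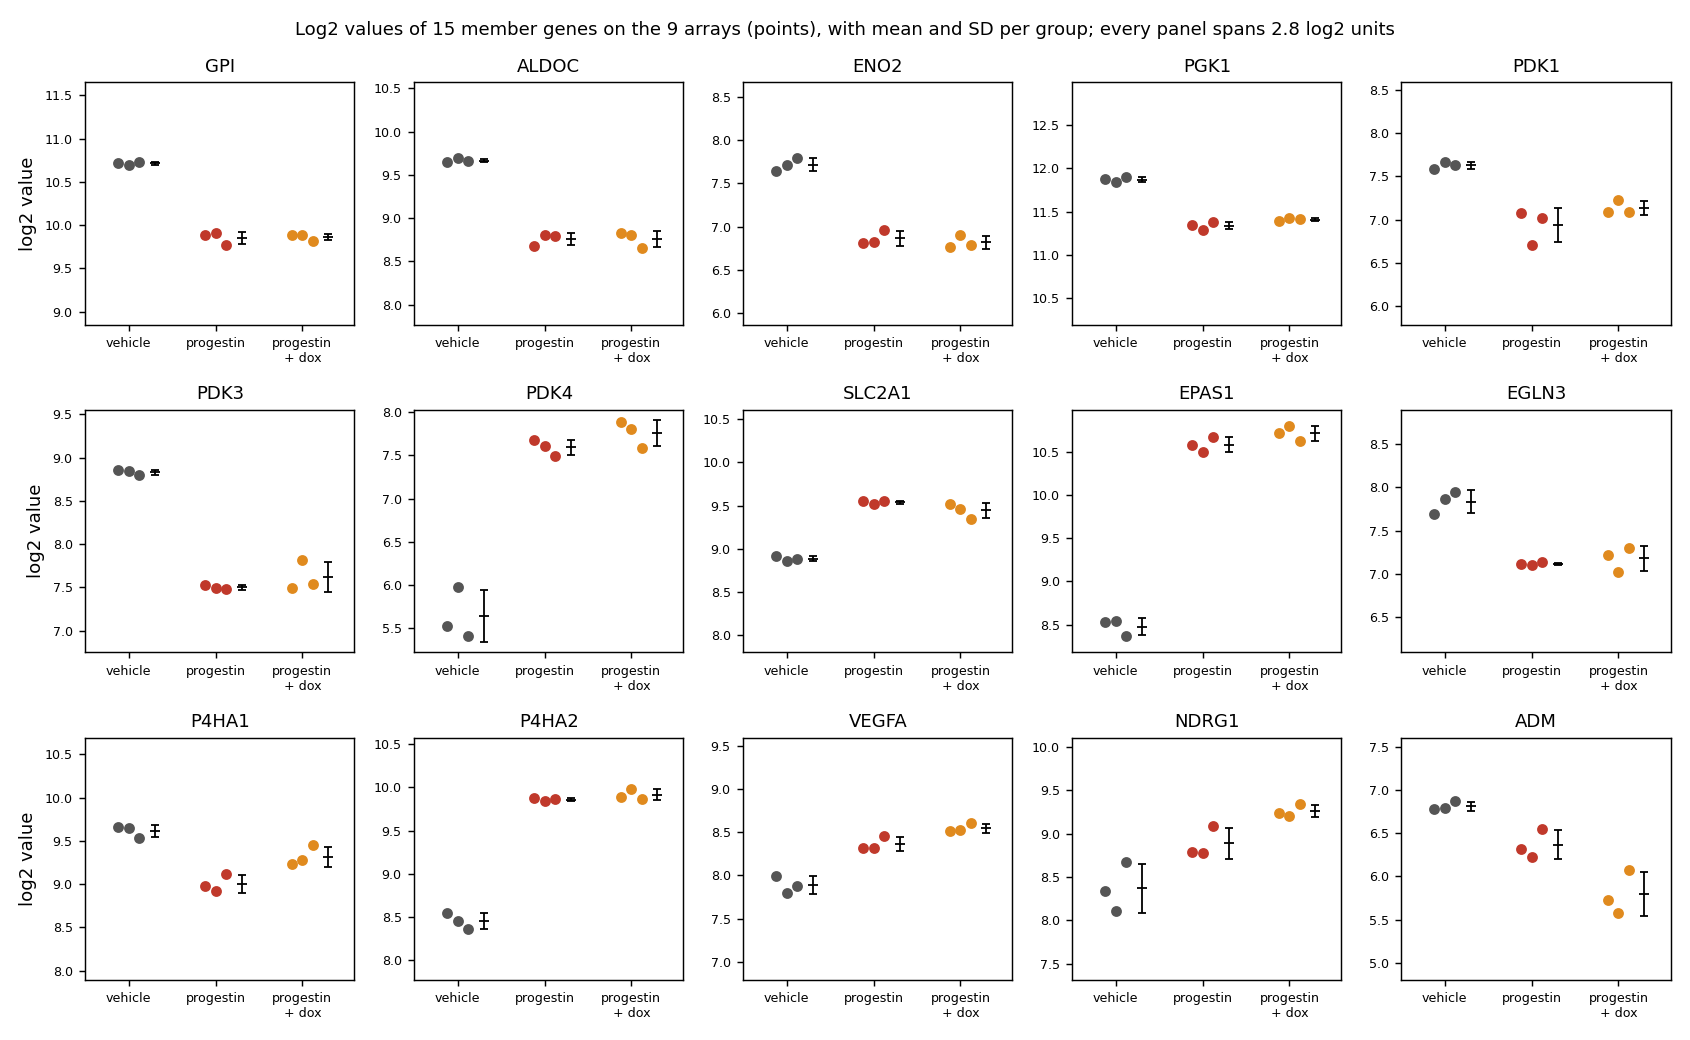
Log2 signal of 15 members on each of the 9 arrays, 1 panel per gene, for vehicle, progestin, and progestin plus doxycycline (+ dox). Points are arrays, the bar beside them is the group mean with its SD, and every panel spans 2.8 log2 units. GPI, ALDOC and PDK3 drop from vehicle to progestin and stay low with doxycycline, EPAS1, PDK4 and P4HA2 rise and stay high, and the mean of ADM is lowest with doxycycline, where its difference from progestin did not pass.

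Doxycycline, given to block the progestin-induced rise of ELF5, changed no member past the threshold. Between progestin plus doxycycline and progestin, 0 of 39 members passed (limma, adjusted p under 0.05), beside 4 of all 21214 probe sets (0.0189%). At an unadjusted p under 0.05 there were 6 members (15.4%), beside 14% of all probe sets, so the members' share was near that of the array. These were PFKP, VEGFA, ADM, ANKRD37, NDRG1 and P4HA1, of which 5 are HIF targets. In a further list of 27 other hypoxia targets, described below, 6 had an unadjusted p under 0.05 (limma), 4 higher and 2 lower, beside the same 14% of all probe sets. After adjustment 0 of the 27 passed. The median change of the members was 0.05, against 0.03 for all probe sets.

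The largest differences with doxycycline lay among the HIF targets. ADM differed by -0.57 ± 0.14 (95% interval -0.88 to -0.25, adjusted p = 0.159), NDRG1 by 0.37 ± 0.15 (0.03 to 0.72, adjusted p = 0.328) and P4HA1 by 0.31 ± 0.09 (0.11 to 0.52, adjusted p = 0.198). P4HA1 passed with variance trend and robust estimation (adjusted p = 0.038), the only member to pass under any alternative. ANKRD37, an ankyrin-repeat protein known as a HIF1 target, gave 8.48, 8.29 and 8.37 in progestin and 8.61, 8.62 and 8.52 in progestin plus doxycycline, a difference of 0.20 ± 0.07 (adjusted p = 0.291). The arrays of the groups did not overlap for 6 of the 8 targets, 5 higher and ADM lower. Among the 27 other hypoxia targets this held for 9 (33.3%), 6 higher and 3 lower, and 0 of the 27 passed. Over all members this held for 11 (28.2%), against 21.2% of all probe sets. The other members with separate arrays were PFKM, PFKP, PGK1, PDK1 and TALDO1, all higher with doxycycline, by 0.05 to 0.20.

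Of the 16 glycolytic enzymes 0 passed with doxycycline against progestin, and their differences lay between -0.125 (LDHB) and 0.155 (PFKP, 95% interval 0.01 to 0.30). For those with the largest progestin change the difference was 0.01 for GPI (95% interval -0.14 to 0.16), -0.00 for ALDOC (-0.17 to 0.17) and -0.05 for ENO2 (-0.23 to 0.13). For the members with the largest progestin change it was 0.13 for EPAS1 (-0.06 to 0.32), 0.17 for PDK4 (-0.18 to 0.52), 0.12 for PDK3 (-0.10 to 0.33) and 0.05 for P4HA2 (-0.11 to 0.22). The intervals of these genes, from GPI to P4HA2, are narrow beside their progestin changes, but they do not show that doxycycline had no effect.

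**Figure D3:**
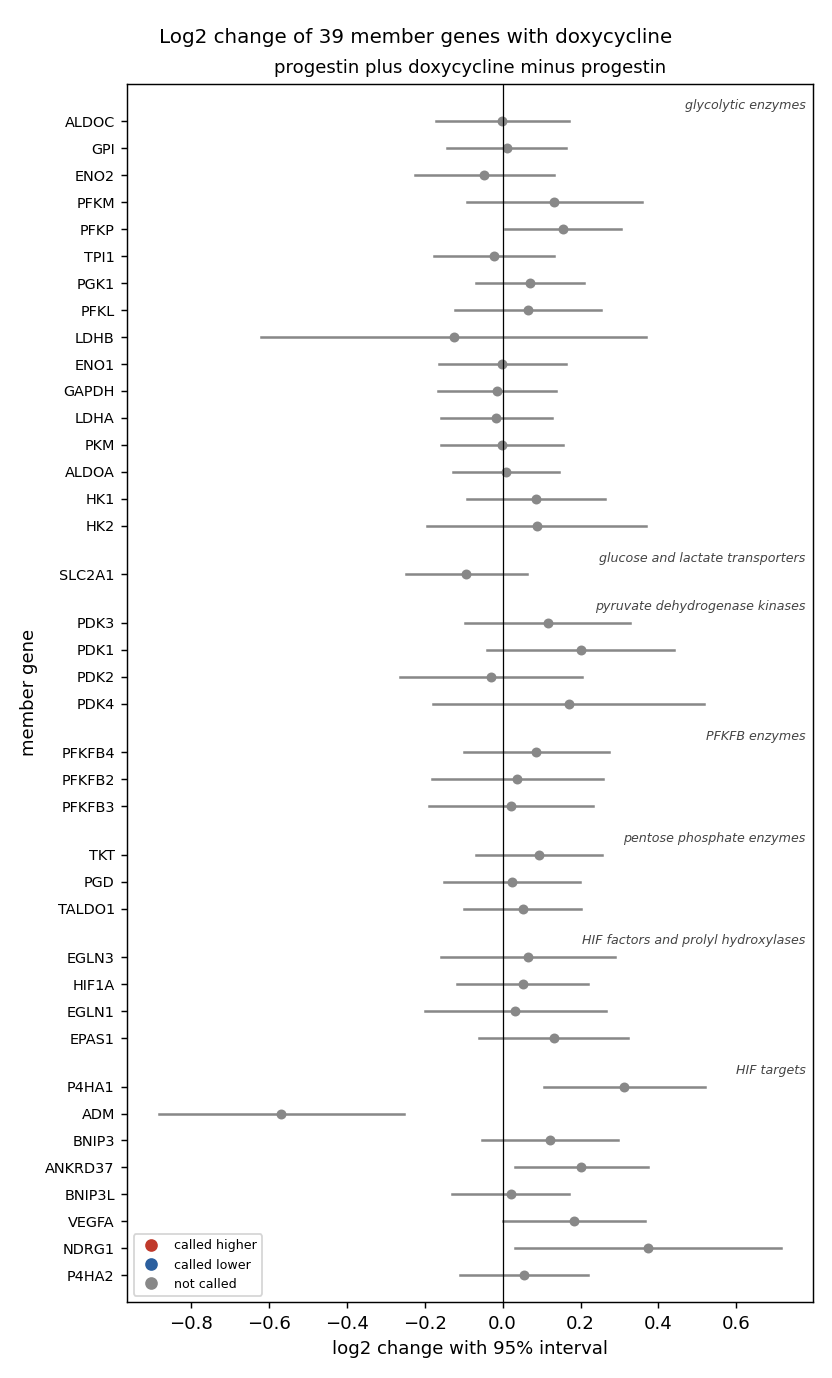
Log2 change of the 39 members between progestin plus doxycycline and progestin, grouped by role, as the difference of 3 arrays against 3 with its 95% interval. Every point is grey because 0 members passed. ADM lies farthest to the left at -0.57, and NDRG1 and P4HA1 farthest to the right.

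Against vehicle, the progestin plus doxycycline arrays gave nearly the picture of progestin alone, with the same 3 vehicle arrays as the base of both comparisons. Of 39 members 27 passed, 10 higher and 17 lower, beside 28.1% of all probe sets in either direction, 15.6% higher and 12.5% lower. All 26 members that passed with progestin alone passed here in the same direction, and ANKRD37 was added with 0.24 (adjusted p = 0.0448). The groups did not overlap for 32 members (82.1%), against 41.8% of all probe sets.

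Side by side, the changes with progestin and with progestin plus doxycycline were 2.10 and 2.23 for EPAS1, 1.95 and 2.12 for PDK4, and 1.41 and 1.46 for P4HA2. They were -1.33 and -1.21 for PDK3, -0.91 and -0.91 for ALDOC, -0.86 and -0.85 for GPI, and -0.85 and -0.90 for ENO2. Among the other HIF targets they were -0.45 and -1.01 for ADM, 0.52 and 0.89 for NDRG1, 0.47 and 0.66 for VEGFA, -0.61 and -0.30 for P4HA1, and 0.20 and 0.22 for BNIP3L. With doxycycline ADM thus reached 2.02-fold below vehicle. The P4HA1 call against vehicle (adjusted p = 0.0383) was lost without vehicle replicate 1 or 2, progestin replicate 1, or replicate 1 or 2 of progestin plus doxycycline (up to 0.125), and the ANKRD37 call without any 1 of 8 arrays (up to 0.145). GAPDH, ENO1 and BNIP3L also lost their call here without some arrays.

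Lists of 106 other measured genes of the same pathways changed in both directions as well. With progestin 25 rose and 25 fell (47.2%, against 29% of all probe sets and 42% of genes above the median). How many of the 106 lay above that median was not counted. Between progestin plus doxycycline and vehicle 21 passed higher and 19 lower (37.7%, against 28.1%). Between progestin plus doxycycline and progestin 0 passed, beside 0.0189% of all probe sets. Of 22 other enzymes of glycolysis and gluconeogenesis, 3 rose and 2 fell with progestin against vehicle, the comparison used for the lists below. FBP1, the gluconeogenic fructose bisphosphatase that opposes phosphofructokinase, fell by 0.90, and the phosphoglucomutase PGM1 by 0.45, whereas LDHD, which uses D-lactate, rose by 0.82 and pyruvate carboxylase (PC) by 0.33. The PC call was lost on leaving out any 1 of 5 arrays (adjusted p of at most 0.0876). Of 11 other pentose phosphate genes, 2 rose and 3 fell: DERA (0.83) and RBKS (0.70), both of deoxyribose and ribose handling, rose, and the nucleotide precursor enzyme PRPS2 (-0.73) and the sedoheptulose kinase SHPK (-0.54) were among those that fell.

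Among 16 other glucose and monocarboxylate carriers, 5 rose and 3 fell. The carriers SLC16A9 (1.48), SLC2A10 (1.30) and SLC16A4 (0.74) rose. SLC2A3 (GLUT3), a high-affinity glucose carrier, passed with 1.28 (adjusted p = 0.0413), but its vehicle arrays read 6.76, 6.75 and 8.42, and the call was lost without any 1 of 8 arrays (up to 0.13). Of 9 genes of pyruvate dehydrogenase and pyruvate import, the pyruvate carrier subunits MPC1 (0.55) and MPC2 (0.60) rose and the dehydrogenase subunits PDHB (-0.67) and PDHX (-0.44) fell. The other dehydrogenase subunits did not pass: PDHA1, which the PDKs phosphorylate, changed by -0.13 (adjusted p = 0.325), DLAT by -0.18 and DLD by 0.04.

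Of 5 further oxygen-sensing genes, VHL, which targets hydroxylated HIF for destruction, and ARNT, the common HIF partner, passed lower with -0.32 and -0.27. Both calls were lost without some arrays (adjusted p up to 0.114 for VHL, without any 1 of 6 arrays, and 0.0919 for ARNT, without any 1 of 4). Among 27 other hypoxia targets, 7 rose and 9 fell. ERRFI1 (1.88), a feedback inhibitor of EGF receptor, and DDIT4 (1.48), an inhibitor of mTORC1, rose, and STC2 (-1.28), a secreted glycoprotein, and PLOD2 (-1.15), a collagen lysyl hydroxylase, fell. DDIT4 and ERRFI1 are also known glucocorticoid-responsive genes. Of 16 glycogen genes, 6 rose and 4 fell, led by PPP1R3B (-1.16), which brings a phosphatase to glycogen, and the branching enzyme GBE1 (-0.85). The glycogenin GYG2 (-0.64) and the liver glycogen synthase GYS2 (0.63) passed but lost their call without any 1 of 3 and 6 arrays (up to 0.0642 and 0.135).

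**Figure D4:**
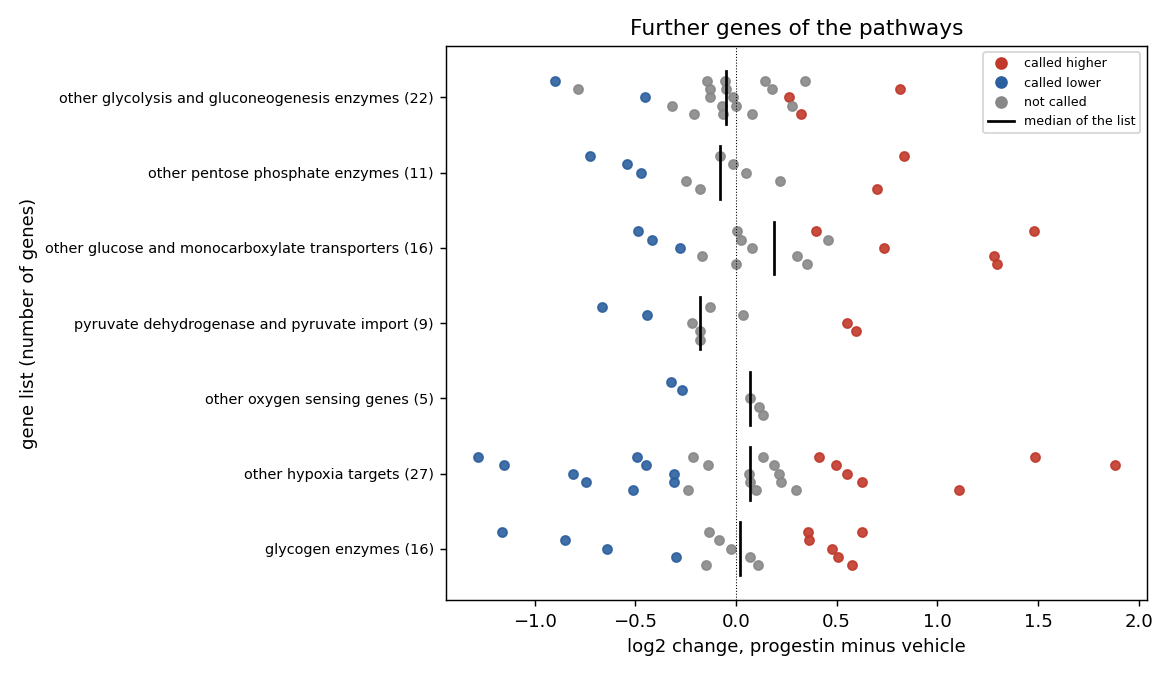
Log2 change between progestin and vehicle of 106 further genes in 7 pathway lists, 1 point per gene and a line at each list's median. Red points passed higher, blue points passed lower and grey points did not pass. Each list spreads to both sides of 0, and the widest spread is that of the other hypoxia targets, from -1.28 for STC2 to 1.88 for ERRFI1.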

How the data were processed

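RNA of 9 cultures was hybridised to Affymetrix HuGene 1.0 ST arrays. The deposited values are log2 signals, 1 per probe set and array. That scale was read from the values, which reach about 14 on every array. Tools named in the submitters' processing notes are PLIER, limma, Affymetrix Power Tools and the Expression Console, without their roles, order or versions. Background correction and normalization are steps not given in the sources used here. Log2 values of dim probe sets are noisy on this scale.

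Of 33297 probe sets, 19460 had 1 gene symbol in the platform annotation, 1754 several and 12083 none. The 21214 with a symbol were tested with limma 3.58.1 in R 4.3.3: a mean for each group fitted on the 9 arrays together, eBayes variances and Benjamini-Hochberg adjustment over all 21214, at an adjusted p of 0.05. Every p is two-sided, and SE stands for the standard error that this model gives a log2 change. A gene passed, rose or fell only by this test. The p-values reflect only the spread between these arrays, whose number limits the precision. For 3 arrays against 3 the smallest exact permutation p is 0.1. The median residual standard deviation was 0.151.

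The members, lists and tests were chosen with earlier results of these data known. Members were described by role, with array values for up to 5 per role with the smallest p among those that passed with progestin, and pathway genes by counts with up to 4 per list. Promoters were matched by symbol to a RefSeq table (GRCh38.p14). PFKFB2, VEGFA, BNIP3L and NDRG1 had no match. The fit was checked on simulated data. Alternatives covered scaling, dim probe sets, variance model, array weights, the replicate number as a block, the samples fitted, the probe sets tested and each array left out.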

Additional observations from a re-analysis of the deposited data

How the results depend on the processing

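Of the 26 members that passed between progestin and vehicle, 21 passed under all 19 alternatives, and of the 27 between progestin plus doxycycline and vehicle, 22 did; 0 members reversed a call. The 5 that lost a call in the first comparison were GAPDH, ENO1, ADM, BNIP3L and NDRG1, and in the second GAPDH, ENO1, BNIP3L, ANKRD37 and P4HA1. Some members gained a call. Of the 13 that did not pass in the first comparison, 3 passed under some alternative: TALDO1, PGD and HIF1A. Of the 12 in the second, 3 did: TALDO1 under 4 (lowest adjusted p = 0.008, limma), LDHB under 2 (0.0164) and EGLN1 under 1 (0.0424). Between progestin plus doxycycline and progestin, 1 member (P4HA1) passed higher with variance trend and robust estimation, and 0 under the others. With each array left out in turn, 7 to 9 members passed higher and 14 to 17 lower between progestin and vehicle, 8 to 10 and 14 to 17 between progestin plus doxycycline and vehicle, and 0 between the progestin groups. For the 106 pathway genes the same omission, chosen after seeing the data, left 19 to 25 higher and 17 to 25 lower. Quantile normalization and median centring moved the median of all probe sets by -0.06 to -0.01. With the dimmest 25% of probe sets left out, LDHB was not tested.

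The arrays share replicate numbers across groups. Deviations of same-numbered arrays correlated between -0.26 and 0.48, and those of differently numbered arrays of different groups between -0.51 and 0.28. The highest values, 0.48 and 0.46, were of same-numbered vehicle and progestin plus doxycycline arrays, but replicate 1 gave -0.10 there. These values do not settle whether the numbers pair the samples, and the main fit took no pairing. With the replicate block, 8 members passed higher and 16 lower between progestin and vehicle, which ended the calls of GAPDH (adjusted p = 0.0519) and BNIP3L (0.0952). Between progestin plus doxycycline and vehicle it left 8 higher and 16 lower and ended those of BNIP3L, ANKRD37 and P4HA1 (0.0735 to 0.0939), and between the progestin groups 0 passed. The adding of 16 to the linear value, the test of all probe sets and the mean of a gene's probe sets moved no count of members by over 1.5 times.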
